A study of Mus musculus with 112 samples.

Results

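The spread between mouse strains in gene expression was compared between calorie restriction (CR) and a control diet, to ask in which genes of white adipose tissue (WAT) the strains were more alike or less alike on CR. All 112 arrays of the series entered, 56 from mice on CR and 56 from mice on control, which form 14 groups of strain by diet with 8 male mice each and 1 mouse per array. The strains were 129S1/SvImJ, BALB/cJ, C3H/HeJ, C57BL/6J, CBA/J and DBA/2J, which are inbred, and B6C3F1/J, a hybrid of C57BL/6 and C3H, so that these 7 strains are not unrelated genomes. Diets began at 8 weeks of age and the epididymal fat pad was taken at 22 weeks from individually housed mice that had been fasted overnight. Feeding was not the same in every strain. B6C3F1/J, DBA/2J, CBA/J and C3H/HeJ followed 1 plan, the CR allowance of 129S1/SvImJ and C57BL/6J was cut further from the middle of the study, BALB/cJ control mice were given more food than other control mice, and BALB/cJ CR mice received what control mice of the other strains did. Differences of BALB/cJ from the other strains on either diet, and of 129S1/SvImJ and C57BL/6J from the 4 strains on 1 plan on CR, therefore cannot be told apart from differences in feeding, which does not hold among those 4 strains.

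Epididymal WAT is a visceral fat depot that lies against the testis and epididymis. Its adipocytes make fatty acids from glucose, store them as triacylglycerol and release them in fasting, and macrophages, progenitors and a covering of mesothelium lie around them. In obese mice the macrophages of this depot are known to increase and to form crowns around dying adipocytes, while restriction of calories is known to raise the enzymes of fatty acid synthesis in fat. Inbred strains differ in body fat and also carry different alleles of many genes, so that a difference between strains can depend on the diet or stand apart from it.

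Log2 signal came from the Affymetrix Mouse Gene 1.0 ST platform, and 19938 genes were compared. The between-strain spread of a gene on a diet is the standard deviation (SD) of its 7 strain means. Its change was tested by a slope in limma, namely the change of a strain's CR effect per log2 unit of that strain's mean level over both diets. A negative slope means that the spread was smaller on CR and a positive slope that it was larger, and genes were called at a Benjamini-Hochberg adjusted p under 0.05. This p measures the spread between mice of a group and holds for these 7 strains. An exact permutation test over strains, which treats the 7 strains as the sample, is given beside it for some genes. Genes printed without it include called genes with an exact p above 0.05. The smallest p that the exact test allows is 1.98e-04.

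Arrays that stood apart were counted before any comparison. Along the CR effect of the other strains, 10 of 112 arrays lay past the midpoint between the diet means of their own strain (5 CR and 5 control), and 4 lay beyond the mean of the other diet, namely BALB/cJ CR mice 4 and 6, BALB/cJ control mouse 3 and DBA/2J control mouse 3. They were kept, and results are also given without them where they matter. Epididymis genes were raised in 11 CR arrays (C57BL/6J, CBA/J and DBA/2J) and in 4 control arrays (DBA/2J), and testis germ cell genes in 6 CR arrays and 1 control array. Adipocyte markers were high in every group, with list means of 12.14 to 12.36 on CR and 12.19 to 12.38 on control. Single mice were lower, with the lowest at 11.15 in C57BL/6J CR and at 11.69 in CBA/J CR. Both groups hold arrays raised for epididymis genes. Array medians lay between 6.72 and 6.86.

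The strains were not uniformly more alike on CR. The typical gene had nearly the same between-strain spread on both diets, with a median SD of 0.106 on CR and 0.102 on control, and 9396 of 19938 genes had the smaller between-strain variance on CR. The median SD between mice of a group was 0.180 on CR and 0.169 on control. A difference between strains passed an F-test in limma in 11773 genes on CR (59.0%) and in 11275 genes on control (56.6%), and in 8980 genes on both. Summed over all genes and corrected for the error of the group means, the between-strain variance was 513.85 on CR and 633.86 on control, a ratio of 0.811. Without this correction it was 670.09 on CR and 761.04 on control, a ratio of 0.880. The exact permutation test over strains, run on the uncorrected difference, gave a two-sided p of 0.304. The corrected ratio ranged from 0.773 to 0.848 when each array was left out in turn, and was 0.981 within the 4 strains fed on 1 plan.

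A changed spread was called in 1495 genes, 7.5% of those tested. The spread was smaller on CR in 1018 genes (5.11%) and larger in 477 (2.39%), and 976 and 459 of them kept their direction when each strain was left out. At an unadjusted p under 0.05 there were 4092 genes. The exact permutation test over strains gave p under 0.05 in 747 genes with a smaller spread (3.75%) and 722 with a larger one (3.62%), and none of these passed after adjustment over all genes. Its smallest p of 1.98e-04 cannot pass that adjustment unless many genes come near it, so the adjusted result says little about single genes. Among the called genes, 480 of 1018 and 265 of 477 had an exact p under 0.05. Genes with a smaller spread stayed the more numerous when any single strain was left out, with 847 against 685 without BALB/cJ. The split went the other way in the 4 strains on 1 feeding plan, which gave 301 genes with a smaller spread and 465 with a larger one.

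**Figure D1:**
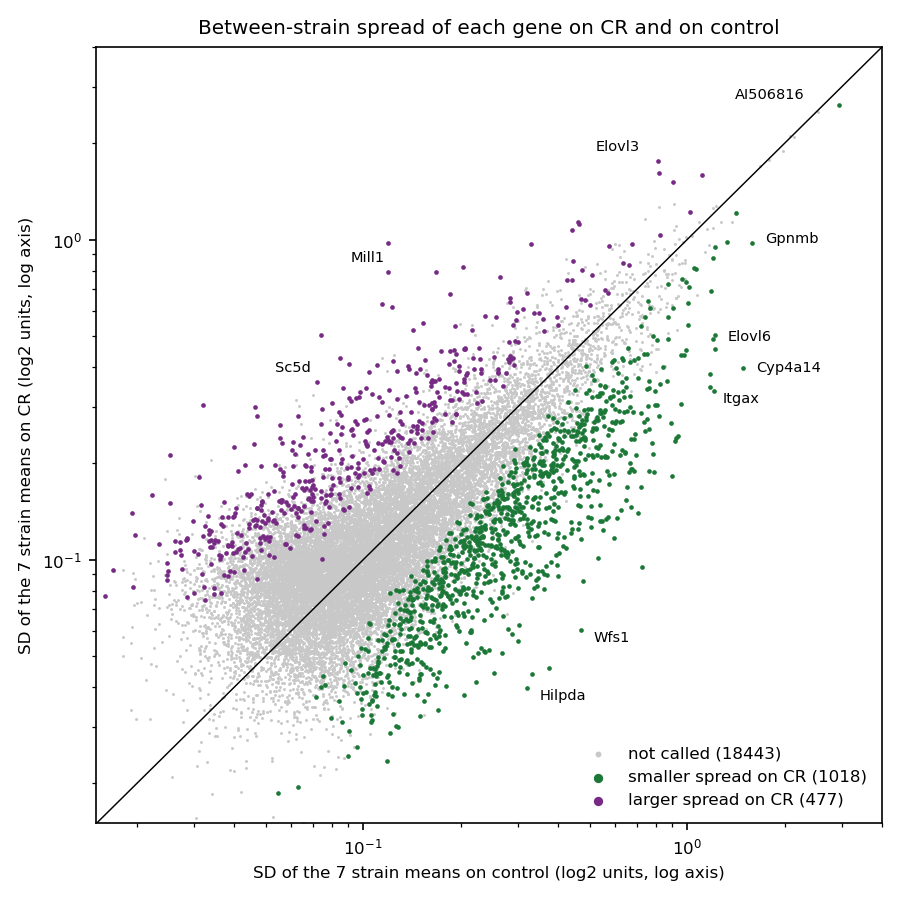
Each point is 1 of 19938 genes, with the SD of its 7 strain means on CR (vertical, log2 units, log axis) against that on control (horizontal, log2 units, log axis), and the line marks equal spread. Called genes lie away from the line, 1018 below it (green, smaller spread on CR) and 477 above it (purple, larger spread on CR), while most genes lie along it.

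The genes with a smaller spread were few in number but held much of the spread seen on control. They carried 7.80% of the summed between-strain variance on CR and 25.3% of that on control, and their median SD was 0.119 on CR and 0.270 on control. For 616 of them the SD was more than 2 times smaller on CR. Genes with a larger spread carried 11.0% of the variance on CR and 2.30% on control, with a median SD of 0.211 on CR and 0.0857 on control. In both sets the direction of these differences follows from how the genes were called. The direction of the CR effect went with the change of spread. Of the genes with a smaller spread 66.0% were lower on CR and 17.6% higher, whereas of those with a larger spread 18.7% were lower and 36.1% higher, and over all genes the shares were 22.0% and 21.9%. A strain difference was called on both diets for 612 of the 1018 genes and on control alone for 406, so in many of them the strains still differed on CR.

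B6C3F1/J, C3H/HeJ and CBA/J stood out on control. They were the 3 highest strains on control in 385 of the 1018 genes with a smaller spread (37.8%), a trio that was chosen after the values were seen, against 921 of 8177 uncalled genes with a strain difference on both diets (11.3%). The strain farthest from the mean of the strains on control was B6C3F1/J in 312 of the 1018 genes, in 284 of them above it, and BALB/cJ in 212, in 53 of them above it. On CR the strain most often farthest away in the same genes was C3H/HeJ, in 193. Among the 477 genes with a larger spread, 129S1/SvImJ was farthest on CR in 116 and DBA/2J in 106.

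Of the 21 pairs of strains, 15 were closer to each other on CR than on control, over all genes and after correction for error, and all 15 stayed closer when each array was left out. The median distance, a root mean square difference in log2 units, was 0.225 on CR and 0.262 on control. The largest drop was between B6C3F1/J and BALB/cJ, at 0.202 on CR and 0.308 on control. Every pair that held BALB/cJ was closer on CR, which cannot be told apart from the feeding of this strain. Pairs with 129S1/SvImJ or C57BL/6J have the same limit on CR. Among the strains fed on the same plan, B6C3F1/J was closer on CR to C3H/HeJ and DBA/2J, and CBA/J to DBA/2J. The remaining pairs of these strains, C3H/HeJ with CBA/J or DBA/2J and B6C3F1/J with CBA/J, were farther apart on CR. B6C3F1/J and C3H/HeJ, which share a parent genome, lay 0.0853 apart on CR and 0.150 on control. In contrast, C3H/HeJ and CBA/J were 0.209 apart on CR and 0.132 on control, and B6C3F1/J and CBA/J 0.203 and 0.167. The trio that was high together on control in many genes was thus less alike in 2 of its 3 pairs on CR.

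**Figure D2:**
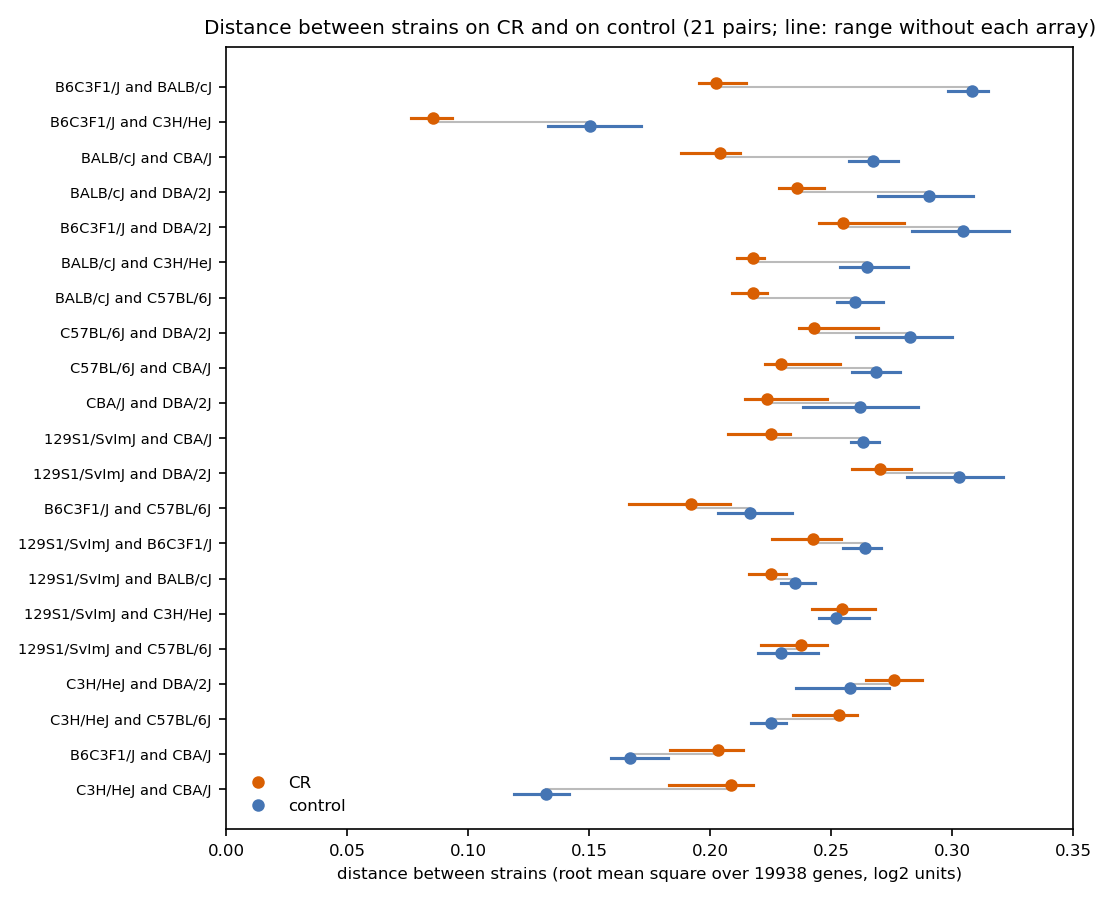
The distance between the means of each of 21 pairs of strains is shown on CR (orange) and on control (blue) as a root mean square over 19938 genes in log2 units, corrected for error, and the coloured lines span the values without each array in turn. Pairs are ordered by the difference, with the 15 pairs that were closer on CR above the 6 that were farther apart.

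The strains were most clearly more alike on CR in macrophage genes. Of 23 macrophage markers, 18 had a smaller spread on CR and none a larger one, against 5.11% of all genes for a smaller spread, and the median log2 ratio of between-strain variance was -1.82 for the list and 0.07 for all genes. By the exact permutation test over strains, 5 of the 23 had p under 0.05 in either direction, against 7.37% of all genes. The mean log2 signal of the list ran from 7.99 to 8.52 over the strains on CR, and from 8.35 to 9.72 on control. All 23 markers differed between strains on control and 20 did on CR. The control means of B6C3F1/J (9.72), CBA/J (9.36) and C3H/HeJ (9.26) stood highest, while BALB/cJ had 8.32 on CR and 8.35 on control. In these bulk samples fewer macrophages and less RNA per macrophage cannot be told apart.

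Itgax, which encodes CD11c, a surface integrin of macrophages that surround dying adipocytes, had strain means of 7.34 in 129S1/SvImJ, 7.41 in B6C3F1/J, 7.37 in BALB/cJ, 7.92 in C3H/HeJ, 6.81 in C57BL/6J, 7.03 in CBA/J and 7.22 in DBA/2J on CR. On control the same strains had 8.04, 10.31, 7.36, 9.82, 7.74, 9.78 and 8.20. The lowest, median and highest Itgax mouse of B6C3F1/J were at 6.99, 7.31 and 7.78 on CR and at 9.56, 10.28 and 11.02 on control, so its diets did not overlap, and the same held for CBA/J, at 6.34, 7.12 and 7.48 on CR and 9.42, 9.66 and 10.72 on control. In BALB/cJ they overlapped fully, at 6.38, 7.47 and 8.04 on CR and 7.01, 7.29 and 7.74 on control. The SD of the strain means of Itgax was 0.347 on CR and 1.18 on control. The slope was -1.39 ± 0.15 (SE), with a limma adjusted p of 8.52e-12 and an exact p of 0.0212.

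**Figure D3:**
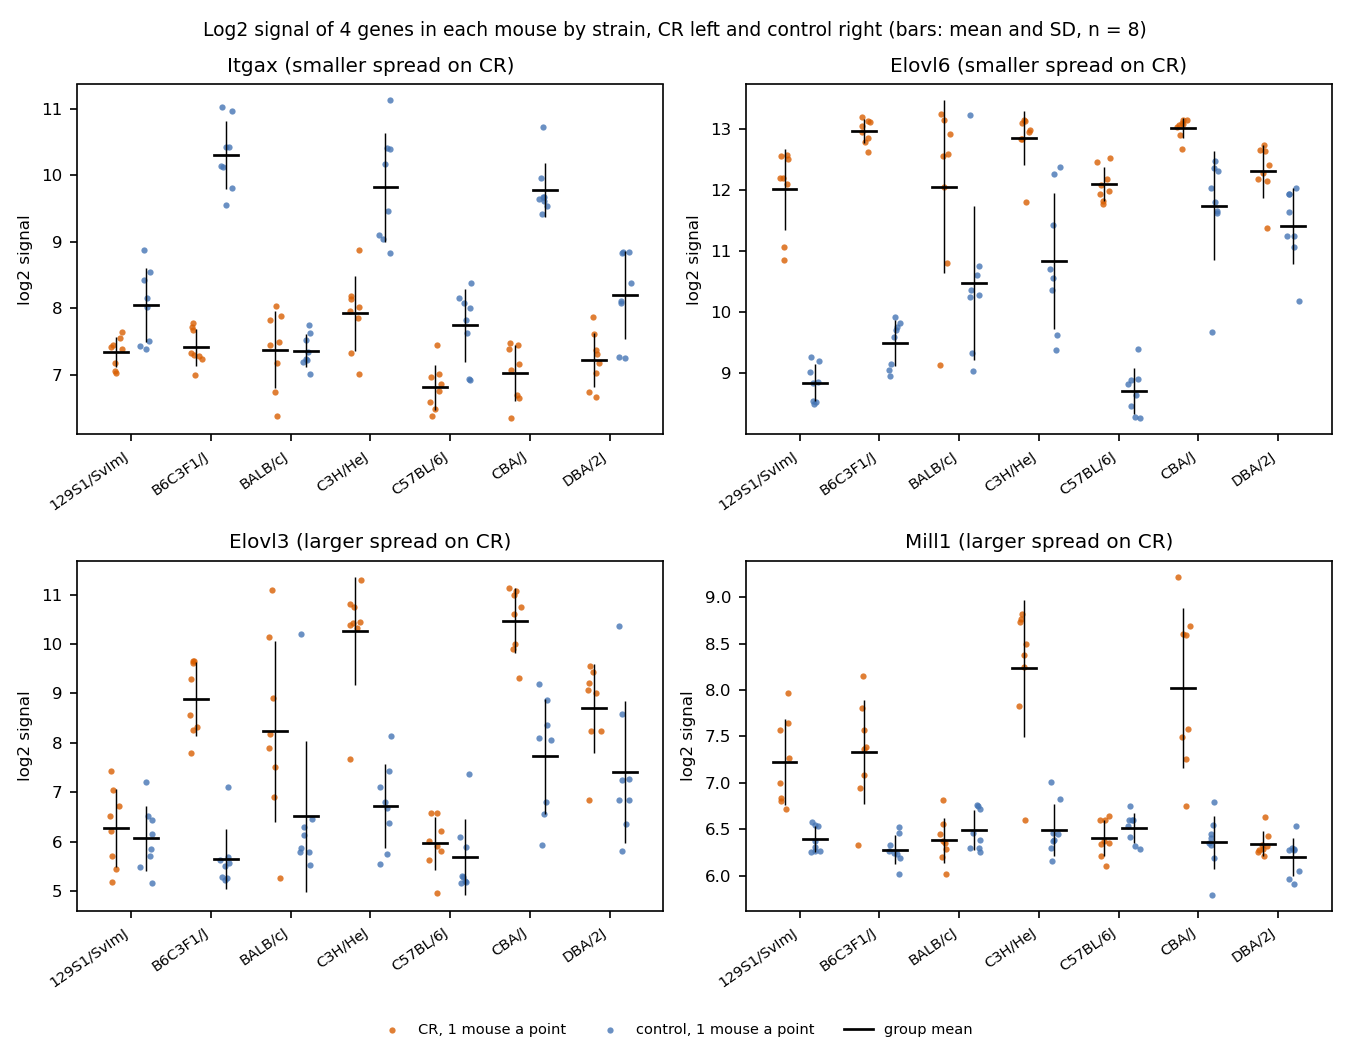
The log2 signal of Itgax, Elovl6, Elovl3 and Mill1 is shown for each mouse by strain, with CR (orange) to the left of control (blue), and bars give the mean and SD of 8 mice. The strain means of Itgax spread from 6.81 to 7.92 on CR and from 7.36 to 10.31 on control, while those of Mill1 spread from 6.34 to 8.23 on CR and from 6.20 to 6.51 on control.

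Several other macrophage genes also had a smaller spread on CR. The lysosomal protease gene Ctss had an SD of 0.305 on CR and 0.798 on control, the beta-glucan receptor gene Clec7a 0.192 and 0.678, and the galectin gene Lgals3 0.239 and 0.672. Cd68, a lysosomal macrophage glycoprotein, had 0.346 on CR and 0.649 on control (limma adjusted p = 6.01e-04) and an exact p of 0.196. In genes of macrophages that take up lipid, 6 of 14 members had a smaller spread (42.9%) and 1 a larger one (7.14%). The shares over all genes were 5.11% and 2.39%. Atp6v0d2, a subunit of the proton pump of lysosomes, had an SD of 0.337 on CR and 1.21 on control, and the elastase gene Mmp12 had 0.690 on CR and 1.18 on control. Gpnmb, for which DBA/2J is known to carry a nonsense allele, was lowest in DBA/2J on both diets, at 6.59 on CR and 7.56 on control. Over all strains the SD of Gpnmb was 0.973 on CR and 1.59 on control. The exact p was 0.0117 for Atp6v0d2, 0.0171 for Clec7a, 0.0192 for Lgals3, 0.0569 for Ctss, 0.184 for Gpnmb and 0.221 for Mmp12.

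Among genes outside the macrophage lists that had the largest drops in spread were the membrane protein gene Tm4sf19 (SD 0.380 on CR and 1.18 on control), the leukocyte receptor gene Cd84 (0.240 and 0.927), the interleukin receptor gene Il7r (0.235 and 0.916), the G protein regulator gene Rgs1 (0.306 and 0.960) and the adaptor gene Stap1 (0.243 and 0.936). In each of the 5, B6C3F1/J, CBA/J and C3H/HeJ were the 3 highest strains on control. The largest mean was 10.54 in B6C3F1/J for Tm4sf19 on control, where its CR mean was 7.36. Of the 1018 genes with a smaller spread these belong to the 29 whose SD differed by more than 0.5. Cd84 (6.60), Rgs1 (5.75) and Stap1 (6.48) had means over the strains on CR below 6.77, the median signal of the probe sets. An effect of low signal was not tested.

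The count in the macrophage list depended on the strains. It was 11 of 23 without B6C3F1/J, 10 without BALB/cJ and 6 in the 4 strains on 1 plan, and it was 16 without the arrays raised for epididymis or testis genes. Over all 19938 genes the counts with a smaller spread in these settings also fell, to 587, 847, 301 and 825 in the same order. With the mean of the macrophage list itself as a covariate, the genes with a smaller spread numbered 566 in all, against 1018 without it.

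**Figure D4:**
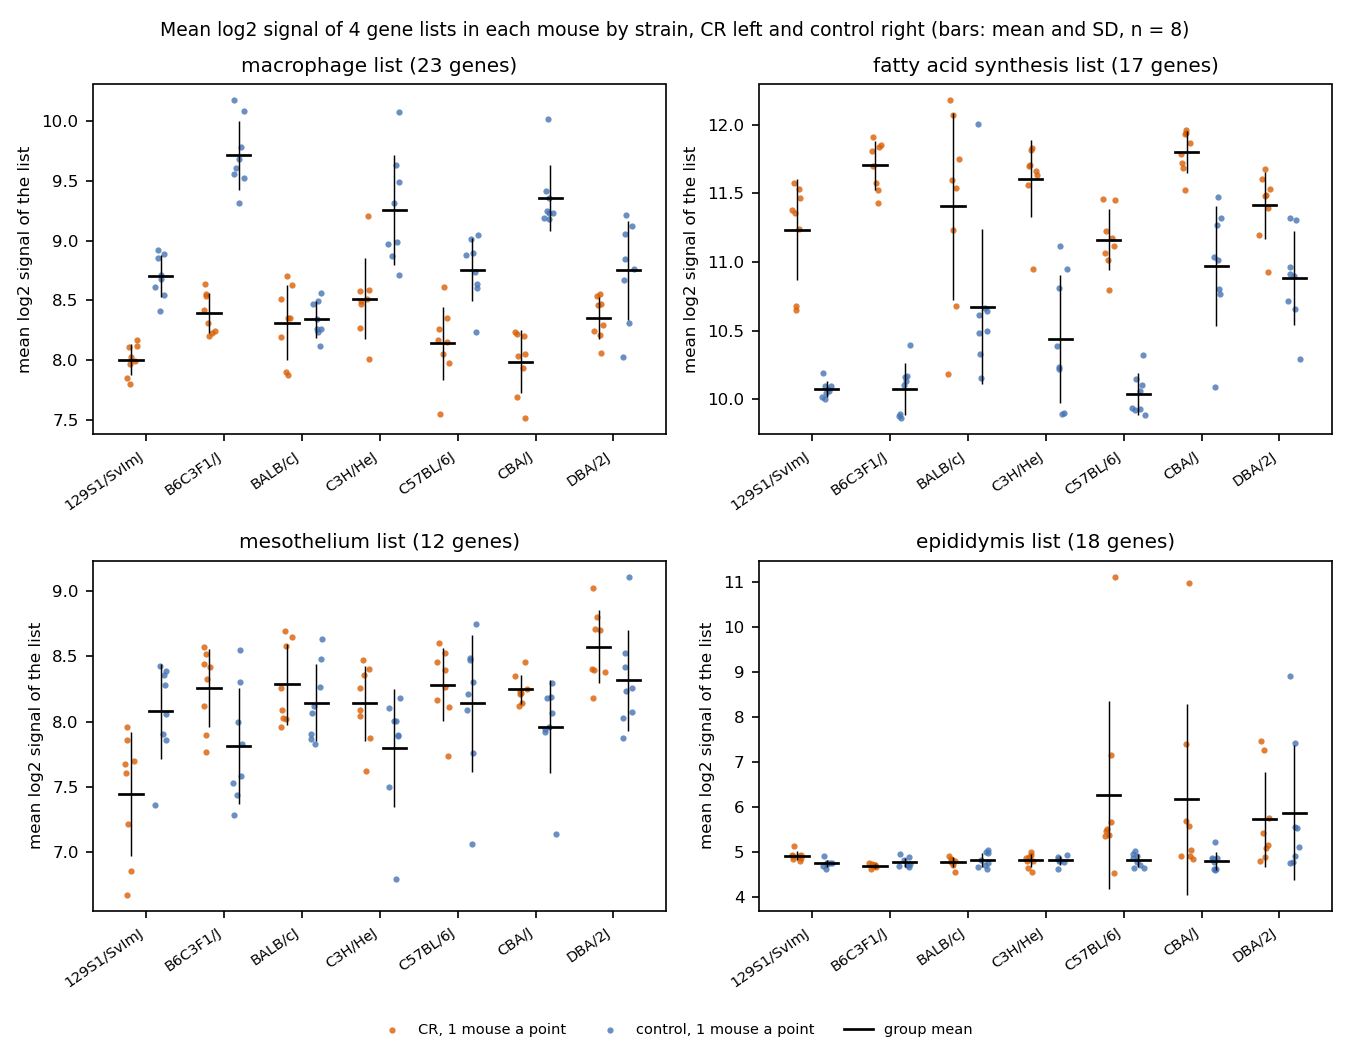
The mean log2 signal of the macrophage, fatty acid synthesis, mesothelium and epididymis lists is shown for each mouse by strain, with CR (orange) to the left of control (blue), and bars give the mean and SD of 8 mice. Macrophage means spread from 7.99 to 8.52 on CR and from 8.35 to 9.72 on control, and high epididymis values occur in single mice of C57BL/6J, CBA/J and DBA/2J.

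The promoters of 2 of these genes are shown because both hold the motif GAGGAAGT, the core letters bound by the macrophage factor PU.1, searched on both strands from 250 bases before to 50 bases after the start. It was found in 506 of 15614 promoters of measured genes (3.24%), and these 2 genes were picked after the match was seen. Both windows are on the plus strand of GRCm38.p6, from RefSeq, at chr3:95526536-95526835 for Ctss and chr9:7344147-7344446 for Mmp12, and capitals mark the motif, which is on the reverse strand and so reads ACTTCCTC. Its first base lies 2 bases before the start of Ctss and 88 bases before that of Mmp12. A second start of Mmp12 in the same table has no such match. A match describes letters and not binding.
Ctss: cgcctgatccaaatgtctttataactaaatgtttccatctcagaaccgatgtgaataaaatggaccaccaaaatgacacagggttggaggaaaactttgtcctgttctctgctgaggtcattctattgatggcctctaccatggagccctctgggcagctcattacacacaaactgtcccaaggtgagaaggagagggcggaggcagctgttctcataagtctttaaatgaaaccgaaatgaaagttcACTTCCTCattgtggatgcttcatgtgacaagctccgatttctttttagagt
Mmp12: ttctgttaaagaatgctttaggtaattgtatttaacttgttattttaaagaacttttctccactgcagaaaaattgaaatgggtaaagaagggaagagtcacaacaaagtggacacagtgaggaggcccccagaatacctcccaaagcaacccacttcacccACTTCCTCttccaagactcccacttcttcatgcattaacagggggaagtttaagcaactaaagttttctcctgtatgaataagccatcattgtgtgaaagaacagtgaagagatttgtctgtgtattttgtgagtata

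Chemokines and antigen presentation showed a smaller spread in fewer members. Of 25 chemokine and cytokine genes 6 had a smaller spread (24.0%, against 5.11% of all genes) and none a larger one. The chemokine receptor gene Ccr2 had an SD of 0.401 on CR and 0.842 on control, and Il1rn, which encodes an antagonist of interleukin-1, had 0.148 and 0.540. Ccl3, Ccl7 and Ccl2, which encode attractants of leukocytes, had 0.110, 0.241 and 0.146 on CR and 0.350, 0.478 and 0.308 on control, and Ccl7 and Ccl2 were not called without the 4 arrays that lay beyond the other diet. In the 4 strains on 1 plan 1 of the chemokines and cytokines was called smaller. Of 9 MHC class II genes 4 were called smaller (44.4%). H2-DMa had an SD of 0.339 on CR and 0.590 on control, and Ciita, the master activator of this class, 0.187 and 0.361. H2-Ea was low in 129S1/SvImJ (6.00 on CR and 5.81 on control) and C57BL/6J (5.68 and 5.81), 2 strains known to carry a deletion in this gene, and lay between 10.80 and 12.12 in the other strains, so that its spread was large on both diets (SD 2.63 on CR and 2.94 on control). Of the 9 MHC class II genes 1 was called smaller without B6C3F1/J, 1 without BALB/cJ and none in the 4 strains on 1 plan, and without the arrays raised for epididymis or testis genes 1 was called smaller and 2 larger.

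**Figure D5:**
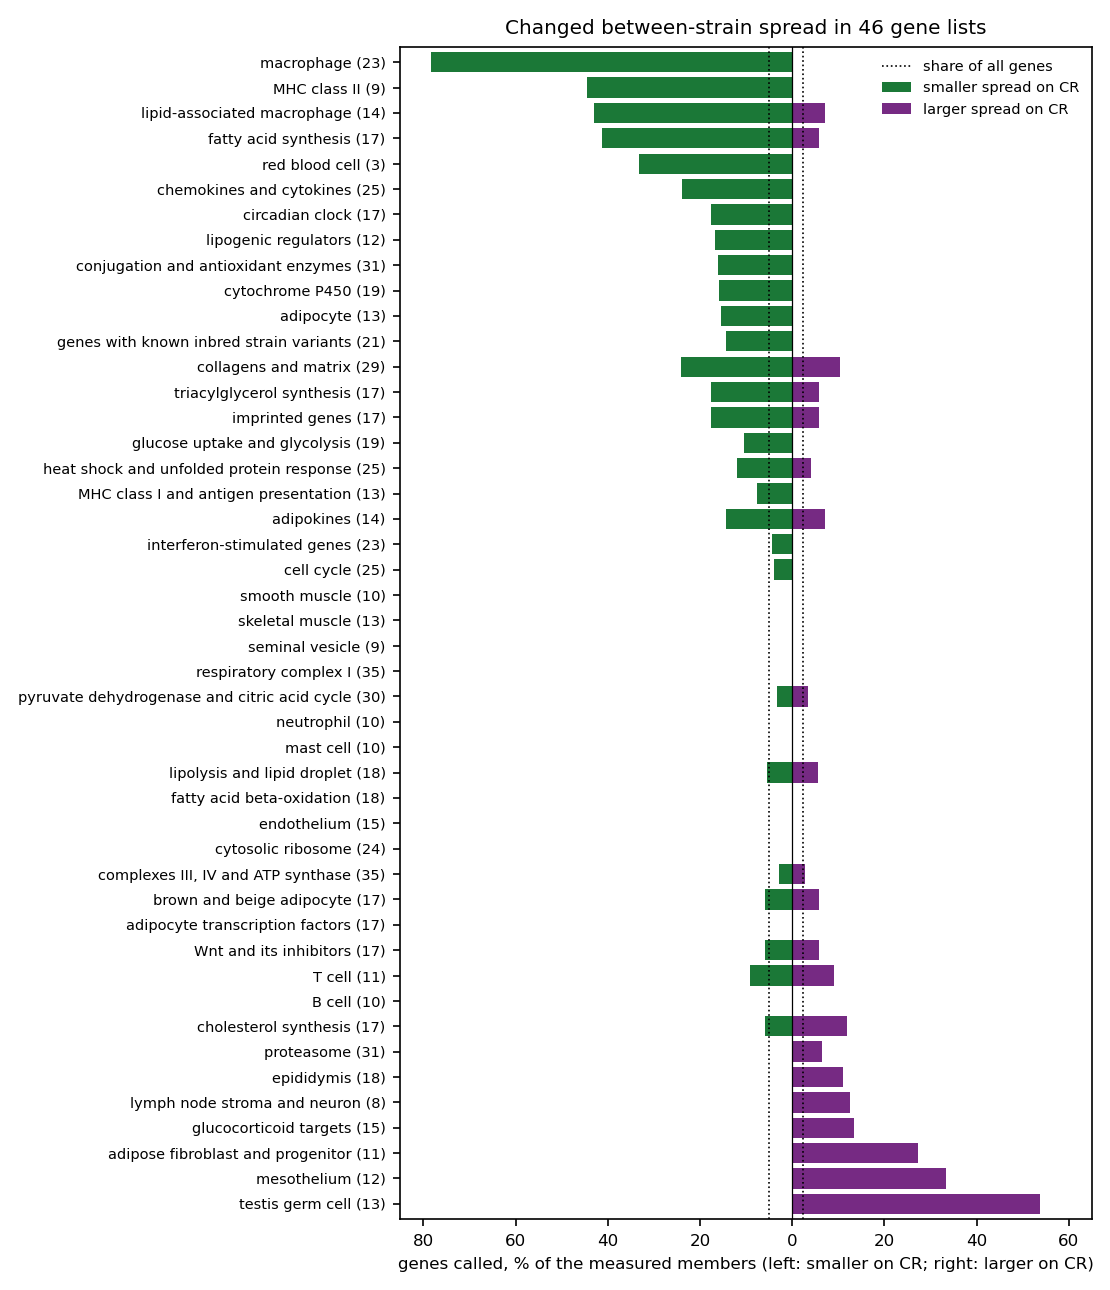
Bars give the percentage of measured members of each of 46 gene lists that were called with a smaller between-strain spread on CR (green, to the left) or a larger one (purple, to the right), with the number of measured members beside each name. Dotted lines mark the shares over all genes, 5.11% and 2.39%, and the macrophage list reaches farthest on the left and the testis germ cell list on the right.

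Of 17 genes of fatty acid synthesis 7 had a smaller spread on CR and 1 a larger one, and 9 were not called, while 14 were higher on CR. The shares called smaller and larger were 41.2% and 5.88%, against 5.11% and 2.39% of all genes. The median log2 variance ratio of the list was -1.27, and in linear signal it was 0.54. The list mean ran from 11.16 to 11.80 over the strains on CR and from 10.04 to 10.97 on control. On control, CBA/J (10.97), DBA/2J (10.88) and BALB/cJ (10.67) stood above 129S1/SvImJ, B6C3F1/J and C57BL/6J, which lay at 10.04 to 10.07. On CR, B6C3F1/J at 11.71 was next to CBA/J at 11.80.

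Elovl6, the elongase that extends palmitate, had strain means of 12.01 in 129S1/SvImJ, 12.97 in B6C3F1/J, 12.06 in BALB/cJ, 12.86 in C3H/HeJ, 12.10 in C57BL/6J, 13.03 in CBA/J and 12.31 in DBA/2J on CR. On control the same strains had 8.85, 9.50, 10.49, 10.84, 8.71, 11.75 and 11.42. The lowest, median and highest Elovl6 mouse of C57BL/6J were at 11.78, 12.04 and 12.53 on CR and at 8.26, 8.74 and 9.41 on control, without overlap, while in DBA/2J they were at 11.39, 12.35 and 12.75 on CR and at 10.18, 11.45 and 12.04 on control, with overlap. The SD of the strain means of Elovl6 was 0.455 on CR and 1.22 on control, with a slope of -1.15 ± 0.20 (SE), a limma adjusted p of 7.16e-06 and an exact p of 0.0437. In linear signal rather than log2, Elovl6 had an SD that was larger on CR by 357 signal units, and only 2 of the 17 genes of the list had a smaller spread.

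Acaca, which encodes the carboxylase that commits acetyl-CoA to synthesis, had an SD of 0.183 on CR and 0.574 on control, the desaturase gene Scd2 0.336 and 0.794, and Thrsp, which promotes lipogenesis, 0.239 and 0.687. In triacylglycerol synthesis 3 of 17 members had a smaller spread (17.6%, against 5.11% of all genes). The 3 were Gpd1 (0.233 on CR and 0.412 on control), Agpat2 (0.197 and 0.336) and Dgat2 (0.110 and 0.207). They act in steps of 1 pathway from glycerol phosphate to stored fat. Their exact p was 0.0438, 0.221 and 0.125. Agpat2 was not called without the 4 arrays that lay beyond the other diet, and no member of the triacylglycerol synthesis list was called smaller without 129S1/SvImJ, in the 4 strains on 1 plan or in linear signal. C57BL/6J was farthest from the mean of the strains, on the low side, on both diets in all 3. Idh1, which makes NADPH in the cytosol, had 0.0966 on CR and 0.328 on control. Insig2, which holds the lipogenic factor SREBP in the endoplasmic reticulum, had 0.0886 and 0.237 and no called mean CR effect. No member of the beta-oxidation list (18 genes), respiratory complex I (35), the cytosolic ribosome (24) or the adipocyte transcription factors (17) was called in either direction. Of all genes 7.5% were called.

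Elovl3, another elongase, is the member of the list with a larger spread. It had strain means of 6.28 in 129S1/SvImJ, 8.89 in B6C3F1/J, 8.24 in BALB/cJ, 10.27 in C3H/HeJ, 5.96 in C57BL/6J, 10.47 in CBA/J and 8.70 in DBA/2J on CR, and of 6.06, 5.65, 6.51, 6.73, 5.69, 7.73 and 7.42 in these strains on control. In C57BL/6J the lowest, median and highest Elovl3 mouse were at 4.97, 5.96 and 6.59 on CR and at 5.17, 5.30 and 7.37 on control, which overlap, and in CBA/J at 9.32, 10.68 and 11.14 on CR and at 5.93, 8.07 and 9.19 on control, which do not. The SD of Elovl3 was 1.76 on CR and 0.812 on control, with a slope of 0.86 ± 0.18 (SE), a limma adjusted p of 2.29e-04 and an exact p of 0.0575. In the 4 strains on 1 plan the SD of Elovl3 differed by -0.0023 between CR and control, and the change was not called.

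Among lipid droplet and stress genes there were some whose strain means nearly coincided on CR. Hilpda, which encodes an inhibitor of adipose triglyceride lipase, had strain means between 6.38 and 6.50 on CR and between 6.60 (BALB/cJ) and 7.58 (129S1/SvImJ) on control. Its SD was 0.0398 on CR and 0.321 on control, with a limma adjusted p of 1.26e-06 and the smallest exact p possible (1.98e-04), but it was not called without BALB/cJ or in the 4 strains on 1 plan. The CR means of Hilpda lie below 6.77, the median signal of the probe sets, and an effect of low signal was not tested. Wfs1, a membrane protein of the endoplasmic reticulum, had means between 8.80 and 8.95 on CR, and on control 9.91 in B6C3F1/J, 9.61 in CBA/J and 9.49 in C3H/HeJ against 8.73 to 9.07 in the other strains (SD 0.0604 on CR and 0.469 on control, exact p = 1.98e-04). The stress factor gene Atf3 had an SD of 0.188 on CR and 0.792 on control and the pseudokinase gene Trib3 0.112 and 0.265. Heat shock genes went both ways, with Dnaja1 at 0.165 on CR and 0.298 on control and Hspa8 at 0.184 on CR and 0.0969 on control, and the change of Hspa8 was not called without the 4 arrays beyond the other diet.

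Of 19 cytochrome P450 genes 3 (15.8%) had a smaller spread on CR, against 5.11% of all genes, and the other 16 were not called, while without 129S1/SvImJ 2 had a smaller spread and 2 a larger one. Cyp4a14, a fatty acid omega-hydroxylase, had strain means between 5.48 and 6.51 on CR, and on control 9.80 in 129S1/SvImJ, 8.14 in B6C3F1/J, 7.60 in C57BL/6J, 7.58 in BALB/cJ and 5.74 to 6.00 in CBA/J, DBA/2J and C3H/HeJ. The CR means of Cyp4a14 also lie below 6.77, the median signal of the probe sets. Mice of 1 strain differed widely on control. The lowest, median and highest Cyp4a14 mouse of 129S1/SvImJ were at 5.12, 5.43 and 6.18 on CR and at 6.30, 10.48 and 11.80 on control. The SD of the strain means of Cyp4a14 was 0.398 on CR and 1.49 on control (limma adjusted p = 4.22e-06, exact p = 0.00238), the largest drop of any called gene that kept its direction without each strain. Cyp4a10 had 0.490 on CR and 1.20 on control and Cyp4a31, which is not in that list, 0.504 and 1.22, and signal of these near-identical genes may be shared between their probes. The oxysterol hydroxylase gene Cyp7b1, highest in BALB/cJ on both diets, had 0.212 on CR and 0.622 on control. Ppara, the receptor that is known to induce Cyp4a genes, was lowest in C57BL/6J on both diets and had 0.293 on CR and 0.557 on control.

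Matrix, imprinted and clock genes were called in smaller numbers. Of 29 collagen and matrix genes 7 had a smaller spread (24.1%) and 3 a larger one (10.3%), against 5.11% and 2.39% of all genes. The protease inhibitor gene Timp1 had an SD of 0.109 on CR and 0.423 on control. Thbs1 and Thbs2, which encode thrombospondins, had 0.542 and 0.613 on CR and 1.00 and 0.904 on control, but in the 4 strains on 1 plan both had the larger SD on CR, by 0.138 for Thbs1 and 0.338 for Thbs2. Over all strains their exact p was 0.138 and 0.325. Among 17 imprinted genes Zim1 (0.360 on CR and 0.761 on control), Peg3 (0.368 and 0.707) and Igf2r (0.102 and 0.176) had a smaller spread and Ndn (0.251 and 0.122) a larger one, and Peg3 was not called without the 4 arrays beyond the other diet or without those raised for epididymis genes. No member of the list of imprinted genes was called smaller without 129S1/SvImJ, and in the 4 strains on 1 plan 1 was smaller and 4 were larger. Among 17 clock genes Arntl, the BMAL1 gene, had 0.238 on CR and 0.471 on control, and its targets Dbp and Hlf had 0.240 and 0.144 on CR and 0.400 and 0.248 on control. The exact p was 0.153 for Arntl, 0.273 for Dbp and 0.216 for Hlf. Of 31 conjugation and antioxidant genes 5 had a smaller spread, among them Gsta4 (0.612 on CR and 0.771 on control) and Gpx1 (0.0732 and 0.205). Without the 4 arrays beyond the other diet Gpx1 was not called.

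In some genes the strains came apart on CR. Mill1, an MHC class I-like gene, had strain means of 7.22 in 129S1/SvImJ, 7.33 in B6C3F1/J, 6.38 in BALB/cJ, 8.23 in C3H/HeJ, 6.40 in C57BL/6J, 8.02 in CBA/J and 6.34 in DBA/2J on CR, and of 6.39, 6.28, 6.49, 6.49, 6.51, 6.36 and 6.20 in these strains on control. The lowest, median and highest Mill1 mouse of C3H/HeJ were at 6.59, 8.44 and 8.81 on CR and at 6.16, 6.42 and 7.01 on control, while DBA/2J mice were at 6.21, 6.31 and 6.64 on CR and at 5.91, 6.28 and 6.54 on control. Mill1 was thus near 1 level in every strain on control, and on CR the means of 4 strains lay above that level and those of BALB/cJ, C57BL/6J and DBA/2J near it. All Mill1 control means lie below 6.77, the median signal of the probe sets, and whether low signal narrowed their spread was not tested. The SD of Mill1 was 0.793 on CR and 0.119 on control, with a slope of 1.86 ± 0.20 (SE), a limma adjusted p of 8.52e-12 and an exact p of 0.00397.

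Several other genes diverged on CR through 1 or 2 strains. Aqp11, an aquaporin of intracellular membranes, was at 10.46 in 129S1/SvImJ and 10.54 in BALB/cJ and at 8.09 to 8.29 in the other strains on CR, and at 7.53 to 9.02 over all strains on control (SD 1.12 on CR and 0.465 on control). The Wnt inhibitor gene Sfrp5 was lowest in CBA/J, at 7.77 on CR and 10.54 on control, and its SD was 0.967 on CR and 0.331 on control. Without CBA/J the change in Sfrp5 was not called. Sc5d, an enzyme of the last steps of cholesterol synthesis, was at 11.06 in B6C3F1/J and at 10.56 or lower in the other strains on CR, and at 9.76 to 9.92 on control (0.359 on CR and 0.0721 on control). Mrps6, a mitochondrial ribosome protein, was at 10.61 in B6C3F1/J and 9.52 in CBA/J on CR, and at 9.84 in B6C3F1/J and 9.52 in CBA/J on control (0.385 and 0.104, limma adjusted p = 2.88e-11, exact p = 7.94e-04). Of 17 cholesterol synthesis genes 2 had a larger spread, Sc5d and Pmvk (0.363 on CR and 0.167 on control), and 1 a smaller one, Nsdhl (0.333 and 0.547). These counts are 11.8% and 5.88%, against 2.39% and 5.11% of all genes, so the smaller share is near that of all genes. Mogat2, an acyltransferase that makes diacylglycerol, had 0.639 on CR and 0.283 on control, and among genes known to respond to fasting Pdk4 had 0.564 and 0.360, Angptl4 0.197 and 0.0533 and the droplet coat gene Plin2 0.312 and 0.165.

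Some markers of progenitors and of mesothelium had a larger spread on CR, and in those called 129S1/SvImJ was the farthest strain on CR, except that in Cd55 it was CBA/J. Of 11 fibroblast and progenitor markers 3 had a larger spread (27.3%, against 2.39% of all genes) and none a smaller one. Dpp4, a surface peptidase of adipocyte progenitors, was at 7.75 in 129S1/SvImJ and at 9.02 to 9.40 in the other strains on CR, and at 8.67 to 9.14 over all strains on control (SD 0.548 on CR and 0.153 on control, limma adjusted p = 1.59e-05). Cd55 had 0.383 on CR and 0.145 on control and Cd34 0.256 and 0.147. Of 12 mesothelium markers 4 had a larger spread, namely Msln (0.329 on CR and 0.106 on control), Bnc1 (0.236 and 0.119), Gpm6a (0.449 and 0.185) and Upk3b (0.450 and 0.174), and the list mean in 129S1/SvImJ was 7.44 on CR and 8.08 on control, while the other strains lay at 8.14 to 8.57 on CR and 7.80 to 8.32 on control. Without 129S1/SvImJ Dpp4, Cd34, Msln and Gpm6a were not called and Bnc1 and Upk3b had the smaller SD on CR, while Cd55 was still called. None of the 4 mesothelium genes was called in the 4 strains on 1 plan or without the arrays raised for epididymis or testis genes.

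Genes of the neighbouring reproductive organs also came apart on CR. Of 13 testis germ cell genes 7 had a larger spread (53.8%, against 2.39% of all genes). Among them were the sperm nuclear protein genes Prm1 (SD 0.822 on CR and 0.203 on control), Prm2 (0.615 and 0.123) and Tnp2 (0.305 and 0.0320). DBA/2J stood apart on CR, with means of 8.84 for Prm1, 8.29 for Prm2 and 6.66 for Tnp2. None of the 13 was called without DBA/2J or without the arrays raised for epididymis or testis genes. Of 18 epididymis genes 2 were called, Gpx5 (1.61 on CR and 0.821 on control) and Lcn5 (1.07 and 0.440), and Gpx5 was not called without the 4 arrays beyond the other diet. The epididymis list ran from 4.54 to 11.1 over mice on CR and from 4.62 to 8.91 on control. The count in the epididymis list was 5 without the arrays raised for epididymis genes, 11 without DBA/2J, and 0 without any other single strain, in the 4 strains on 1 plan or in linear signal. Over all genes there were 825 with a smaller spread and 481 with a larger one without the arrays raised for epididymis or testis genes, 1025 and 568 without those raised for epididymis genes, and 1183 and 614 with the epididymis list as a covariate.

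Large strain differences with no called change of spread were held by 1 or 2 strains in several genes. The 8 genes with the largest spread over both diets among those not called include AI506816 (SD 2.51 on CR and 2.54 on control), low in 129S1/SvImJ (4.09 and 3.89) and BALB/cJ (5.81 and 6.10). Rarres1 (2.10 on CR and 2.14 on control) was high in BALB/cJ, at 11.60 on CR and 11.68 on control. Tmem45b (2.11 on CR and 2.08 on control) was low in DBA/2J, at 7.07 and 6.99. The phosphodiesterase gene Gdpd3 was high in 129S1/SvImJ, at 10.73 and 10.94, and the mast cell protease gene Mcpt2 was high in DBA/2J, at 8.36 and 8.30. Klk1b22, a kallikrein of a family of close copies, was highest in C3H/HeJ, at 9.58 on CR and 9.68 on control. Trim12a was high in C57BL/6J (7.11 and 7.09) and its hybrid B6C3F1/J (6.23 and 6.20) and lay at 4.04 to 4.38 in the other strains, so that the hybrid fell between its parents C57BL/6J and C3H/HeJ on both diets. The ribonuclease gene Rnase2a had an SD of 1.22 on CR and 1.42 on control, and its CR effect differed between strains (limma interaction F-test, adjusted p = 5.66e-05).

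The spread between mice of 1 group changed in few genes. It was smaller on CR in 39 genes (0.196%) and larger in 19 (0.0953%) by limma on absolute deviations from the group mean, with 2534 genes at an unadjusted p under 0.05. The ankyrin repeat gene Ankrd23 had a pooled within-group SD of 0.111 on CR and 0.320 on control and the serine protease gene Prss21 0.157 and 0.366, and both also had a smaller spread between strains. The oxidase gene Dao had a within-group SD of 1.22 on CR and 0.676 on control. Without the 4 arrays that lay beyond the other diet, the counts were 110 genes smaller and 258 larger.

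Of the genes that the study measured by PCR in WAT, Acaca and Cd68 had a smaller spread on CR and the others that were found here, reference genes included, were not called. Acss2, which activates acetate, had an SD of 0.310 on CR and 0.461 on control (limma adjusted p = 0.143) and was called without the 4 arrays beyond the other diet. Slc2a4, the insulin-responsive glucose transporter GLUT4, was higher on CR by 0.92 and had an SD of 0.300 on CR and 0.291 on control. Me1, which makes NADPH, was higher by 1.21, with 0.303 on CR and 0.370 on control. No change of spread was called in these genes, with limma adjusted p of 0.948 for Slc2a4 and 0.612 for Me1, which does not show that the spreads were equal. Their CR effect differed between strains (limma interaction F-test, adjusted p = 6.75e-04 for Slc2a4 and 0.00718 for Me1).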

How the data were processed

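The Affymetrix Mouse Gene 1.0 ST platform was used for epididymal WAT of 112 male mice, each on its own array, with 8 CR and 8 control mice in each of 7 strains; groups were taken from the labels. The deposited values are log2 signals that the authors made by RMA in Affymetrix Expression Console. The software version, which arrays were normalized together and scan batches are not given in the sources used here, so that batch and group cannot be told apart. Precision is limited by how many arrays there are. Of 35556 probe sets 21789 name 1 gene in the platform annotation, 1621 several and 12146 none, which gave 19938 genes, and the brightest probe set stood for each of 999 genes that had several. No filter on dim genes was applied.

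A model with 14 group means was fitted in limma 3.58.1 (R 4.3.3), and the slope of the CR effect of the 7 strains on their mean level over both diets was tested, with F-tests of strain on each diet and Benjamini-Hochberg adjustment over all genes. Within-group spread was tested by limma on absolute deviations from the group mean. Summed between-strain variance, without the correction for error, and single genes were also tested by exact permutation over strains, two-sided. Labels spell 2 strains as Balbc/J and C57BL6/J. The steps were tested on simulated data. Named genes are the 12 with the largest drop and the 12 with the largest rise of the between-strain SD among called genes of stable direction, up to 4 called members of each of 46 lists, the 8 uncalled genes with the largest spread, the top 2 per strain and direction, the top 5 for within-group spread, the 8 per direction with the smallest exact p and the study's PCR genes; the text gives a selection of these. Members, lists and tests were chosen with earlier results of these data known. Alternatives were other normalizations, gene filters, probe set rules, variance models, scales, covariates and subsets of strains or arrays. Figures used matplotlib 3.10.9, numpy 2.4.6 and pandas 2.3.3 in Python 3.11.15.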

Additional observations from a re-analysis of the deposited data

Results flagged for a closer look

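Each of 14 groups of 8 mice was examined for 5 genes and 5 lists, and in 25 of 140 such groups the highest or the lowest mouse stood apart from the other 7 by a share of the range of the group above Dixon's critical value, where chance gives about 1 in 20. BALB/cJ control mouse 3 was highest for Elovl6 (13.24), Elovl3 (10.21) and the fatty acid synthesis list (12.01). C3H/HeJ CR mouse 4 was lowest for Elovl6 (11.82), Elovl3 (7.67), Mill1 (6.59), the fatty acid synthesis list (10.95) and the testis germ cell list (5.80). CBA/J control mouse 2 was highest for Itgax (10.72) and the macrophage list (10.02) and lowest for Elovl6 (9.68). B6C3F1/J control mouse 2 was highest for Cyp4a14 (11.91) and Elovl3 (7.10), and C57BL/6J control mouse 2 was highest for Elovl3 (7.37). DBA/2J CR mouse 6 was lowest for Elovl6 (11.39), and CBA/J control mouse 4 was lowest for the mesothelium list (7.14).

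For the epididymis list, C57BL/6J CR mouse 2 (11.11), CBA/J CR mouse 5 (10.97), 129S1/SvImJ CR mouse 8 (5.15) and CBA/J control mouse 8 (5.22) were the highest of their groups. For the testis germ cell list, C57BL/6J CR mouse 2 (6.62), CBA/J CR mouse 5 (6.55), 129S1/SvImJ CR mouse 1 (6.09), 129S1/SvImJ control mouse 7 (6.16) and B6C3F1/J control mouse 7 (6.08) stood apart.

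The CR effect differed between strains by an F-test in limma in 3789 genes, and in 1495 genes it changed along the level of the strain, which is the changed spread of the report.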

How the results depend on the processing

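The counts of genes with a smaller and a larger between-strain spread, 1018 and 477, stayed within 1.5 times of these under the other normalizations, filters, probe set rules, scales and variance models, with these exceptions. Array weights gave 1586 and 1376, and exact permutation over strains 0 and 0 after adjustment, against 747 and 722 at an unadjusted p under 0.05. The counts after adjustment are limited by the smallest p that the exact test allows. Genes with a smaller spread numbered 587 without B6C3F1/J, 301 in the 4 strains on 1 plan and 566 with the macrophage list as a covariate, which was added after seeing the data, as were the mesothelium covariate and the settings without arrays raised for testis genes or beyond the other diet. Genes with a larger spread numbered 316 without 129S1/SvImJ and 294 without B6C3F1/J. Without the 4 arrays beyond the other diet there were 982 and 505 genes, 844 and 383 of them shared with the 1018 and 477. The ratio of summed variance was 0.890 without BALB/cJ, 0.981 in the 4 strains, 0.965 without arrays raised for epididymis or testis genes, 0.995 with each gene scaled to its mean variance and 0.773 to 0.848 without each array. Strain effects on each diet kept their counts within 1.5 times. Genes with a smaller and a larger within-group spread, 39 and 19, were 64 and 64 after quantile normalization, 3 and 0 by deviations from the group median, 372 and 1816 by an F-test of pooled variances, 7 and 11 without arrays raised for epididymis and 110 and 258 without the 4 arrays beyond the other diet.

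Of 111 named genes these changed direction and were called either over all arrays or in the setting named. Values are the SD on CR minus that on control. Changes of direction in genes called in neither are not listed. With the macrophage covariate they were Mmp12 (0.074), Hk3 (0.026), H2-Ab1 (0.020), Msln (-0.12), Bnc1 (-0.12), Gpm6a (-0.14) and Upk3b (-0.12). In the 4 strains they were H2-Ea (0.25), Thbs1 (0.14), Thbs2 (0.34), Hlf (0.035), Elovl3 (-0.0023), Aqp11 (-0.064) and Bnc1 (-0.035). In linear signal they were Elovl6 (357), Scd2 (105.7), Nsdhl (84.0) and Rnase2a (154). Without 129S1/SvImJ they were Thbs2 (0.19), Bnc1 (-0.027) and Upk3b (-0.081), with the mesothelium covariate Bnc1 (-0.0069), Gpm6a (-0.059) and Upk3b (-0.0080), without BALB/cJ Nampt (0.15) and without DBA/2J Kap (0.010). Besides the genes that changed direction, the adjusted exact test over strains no longer called 91 of the 111 genes. On the same count the 4 strains no longer called 45, the macrophage covariate 38 and each other setting 23 or fewer. The causes were not tested.

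Replicate numbers were not taken to pair the samples, and the labels do not say what they stand for. Mice of the same number had deviations with a mean correlation of 0.0618 and mice of other numbers -0.00596, and 18 of 56 pairs of a CR and a control mouse of 1 strain were over 0.1, with values from -0.363 to 0.550. With the number as a replicate block the counts were 1115 and 616, and 41 and 17 for within-group spread, and no call among the 111 named genes changed.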

Other observations

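The array also carries probe sets for miRNA genes, which measure mostly the primary transcript and not the mature miRNA. Of 300 such genes 9 had a smaller between-strain spread on CR (3.0%) and 1 a larger one (0.333%), shares below those of all genes, and the ones described here were chosen after their values were seen. Mir221 had an SD of 0.0883 on CR and 0.295 on control (limma adjusted p = 1.02e-06), and Mir222, its neighbour on chromosome X, 0.0925 and 0.205 (0.0414). Their 3p mature forms have the same seed. Mir342 had an SD of 0.0588 on CR and 0.287 on control (limma adjusted p = 6.60e-07) and Mir34a 0.162 and 0.367 (0.00576). Mir221 had strain means of 4.84 to 5.12 on CR, and on control 5.84 in B6C3F1/J, 5.60 in CBA/J and 5.46 in C3H/HeJ against 5.00 to 5.26 in the other strains. Mir342 was at 7.39 to 7.54 on CR, and on control at 8.30 in B6C3F1/J, 7.92 in CBA/J and 7.84 in C3H/HeJ against 7.47 to 7.74 in the others. The strain means of Mir221, Mir222 and Mir34a lie below 6.77, the median signal of the probe sets, on both diets. Mir222 and Mir34a were not called without the 4 arrays beyond the other diet, nor Mir342 without B6C3F1/J, and Mir221, Mir222 and Mir342 were not called with the macrophage list as a covariate. The mature sequences, from RefSeq on GRCm38.p6, show which members share a seed (bases 2 to 8, in capitals).
miR-221-3p: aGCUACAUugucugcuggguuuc
miR-222-3p: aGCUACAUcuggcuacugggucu
miR-342-3p: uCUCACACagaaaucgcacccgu
miR-34a-5p: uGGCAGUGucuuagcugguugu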
